A study of Mus musculus with 45 samples.

Results

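p53-/- mouse embryonic fibroblasts (MEFs) were compared after 8 h of IL-1b and at 0 h, in cells of 2 biological replicates, KO-1 and KO-2, each of which gave 1 mRNA-seq library at each time. These 4 of the study's 45 libraries were chosen by genotype, agent and time in the labels, and the comparison was read over all 13851 genes tested of the 37991 listed. The other libraries hold p53-/- and wild-type (WT) MEFs at 0, 0.5, 1, 3 and 8 h of IL-1b, TNF or LPS, with 2 p53-/- libraries and 1 WT library in each condition. The dose was 10 ng/ml for IL-1b and for TNF, and 100 ng/ml for LPS. The IL-1b 8 h libraries are set below against IL-1b 3 h, and their change against that of TNF, LPS and WT cells. All were primary C57BL/6 MEFs, kept overnight in low serum before the agent was added. Per the series' design text, p53-deficient cells served because they live longer in culture and so allow retroviral transduction. Whether KO-1 and KO-2 came from separate embryos is not given in the sources used here. The p-values thus measure the spread between libraries, estimated over all p53-/- conditions rather than these 4 alone. Unstimulated cells kept for 8 h were not analysed here, so the effect of IL-1b and that of 8 more hours in the same medium cannot be told apart at this time.

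The 8 h libraries held 9259998 and 8885085 counts on genes, against 11348859 and 10660439 at 0 h. Levels are given as CPM, the read count scaled to library size with TMM, for KO-1 and then KO-2. Changes are log2 fold changes of 8 h over 0 h. Trp53 RNA ranged between 50.9 and 86.5 CPM in the 30 p53-/- libraries (median 63.9) and between 158 and 293 CPM in the 15 WT libraries (median 198). The ranges did not overlap, and reads on the gene remained in every p53-/- library. The deleted part is not given in the sources used here. Within p53-/- cells Trp53 had 83.3 and 82.1 CPM at 8 h, against 68.7 and 63.5 CPM at 0 h (log2 0.32, SE 0.08, edgeR adjusted p = 0.00579). That call was lost without the KO-2 library of 0 h (log2 0.27, adjusted p = 0.0827). Defining fibroblast markers were high: the 10 tested summed to 31335 and 33726 CPM at 8 h, against 35066 and 32788 CPM at 0 h. Of these, 3 rose (Lum, Dcn and Pdgfra) and 1 fell (Thy1), and each call was lost when some 1 library was left out. Mitochondrially encoded RNA made up 0.219% and 0.441% of counts at 8 h, against 0.653% and 0.598% at 0 h, and its part in the results was not tested.

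IL-1b binds the receptor IL1R1, which then recruits the accessory chain IL1RAP. The adaptor MyD88 and IRAK kinases pass the signal to TRAF6, to the IkB kinases, which free NF-kB from its IkB inhibitors, and to MAP kinases, which among other things stabilise short-lived mRNAs. Fibroblasts are known to answer IL-1 with chemokines for neutrophils and monocytes, IL-6, colony-stimulating factors, prostaglandins and matrix-degrading enzymes, and many NF-kB target genes encode inhibitors of the pathway itself.

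After 8 h of IL-1b, 1736 genes (12.5% of those tested) were higher than at 0 h and 1639 (11.8%) were lower, at an adjusted p below 0.05 (edgeR's quasi-likelihood test, Benjamini-Hochberg adjustment over 13851 genes). Most of these changes were small. A rise of at least 2-fold was called for 353 genes (2.55%) and a fall of that size for 312 (2.25%), so that 1383 rises and 1327 falls were below 2-fold. Large changes were mostly rises: at 8-fold and over there were 61 rises and 10 falls, and at 32-fold and over 25 rises and 2 falls. The genes that rose at least 2-fold, a set this change itself defines, together made up 26527 and 27895 CPM at 8 h, against 10002 and 9064 CPM at 0 h. Those that fell at least 2-fold made up 3662 and 3885 CPM at 8 h, against 9369 and 9157 CPM at 0 h.

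Krt16, an epithelial keratin named after its values were seen, was called higher although it was read at 3.13 CPM in KO-1 and 0 CPM in KO-2 at 8 h; without the KO-1 library of 8 h its change was log2 -2.11 (adjusted p = 0.715), and it lost its call without the KO-1 or KO-2 library of 0 h (adjusted p = 0.11 and 0.0604). The number of calls depended on the tool and the libraries. DESeq2 called 1129 rises and 919 falls. Rises numbered 1046 without the KO-2 library of 0 h, and falls numbered 972 without the KO-1 library of 8 h, 1064 without the KO-1 library of 0 h and 974 without the KO-2 library of 0 h. The 2 libraries of 8 h differed from each other more than those of 0 h did: a chi-square of their counts per degree of freedom was 6.45 at 8 h and 3.68 at 0 h.

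**Figure D1:**
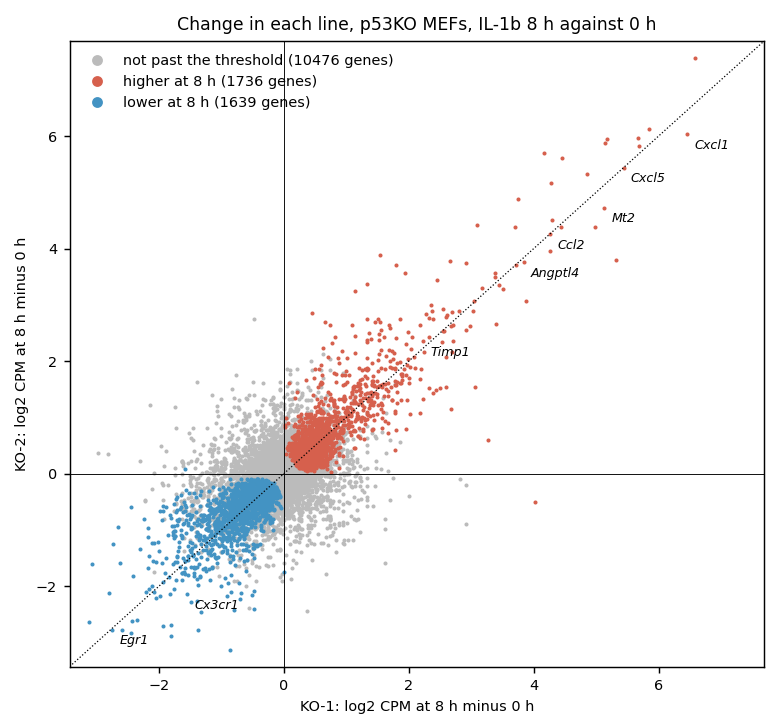
Change of each of the 13851 tested genes in KO-1 (x axis) and KO-2 (y axis), as log2 of 8 h over 0 h of IL-1b. Red points are the 1736 genes that rose, blue points the 1639 that fell and grey points the 10476 that did not pass the threshold. The dotted diagonal marks equal change, and the named genes at the upper right, such as Cxcl5 and Cxcl1, lie far above the bulk in both replicates.

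In the IL-1 receptor pathway 3 receptor chains rose, while most of the signalling core did not pass the threshold. Of 22 members tested, 6 rose and 1 fell, with a median log2 change of 0.04, against -0.0015 for all genes tested. Il1rl1, which encodes the IL-33 receptor ST2 and its soluble decoy form, was the most changed: it had 1209.9 and 1308 CPM at 8 h, against 159.6 and 223 CPM at 0 h (log2 2.72, SE 0.16, edgeR adjusted p = 2.6e-12). Il1rap, the shared accessory chain, had 53.5 and 55.4 CPM at 8 h, against 20.7 and 21.6 CPM at 0 h (log2 1.37, SE 0.10, edgeR adjusted p = 1.16e-10). Il1r1, the receptor for IL-1b itself, had 58 and 64.3 CPM at 8 h, against 47.5 and 43 CPM at 0 h (log2 0.43, SE 0.09, edgeR adjusted p = 0.000699). Il1rl1 and Il1rap were chosen by this same test, and Il1r1 was named whatever its value. Il1rl2, a chain of the IL-36 receptor named after its values were seen, did not pass the threshold (log2 0.33, edgeR adjusted p = 0.226), and Il1r2 and Sigirr were below the filter on low counts. Map3k8, a kinase that links this pathway to ERK, rose by log2 1.96 (edgeR adjusted p = 2.09e-08), and Il1rn, the receptor antagonist, by log2 0.85 (edgeR adjusted p = 5.4e-07). The 1 member that fell, named after its value was seen, was Irak2, a kinase of the receptor complex (log2 -0.36, edgeR adjusted p = 0.0273). Its call was lost without the KO-2 library of 8 h (adjusted p = 0.24) or the KO-1 or KO-2 library of 0 h (adjusted p = 0.132 and 0.0693) and under DESeq2 (adjusted p = 0.1).

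RNA of the ligand that had been added also appeared. Il1b, which encodes IL-1b, had 5.73 and 8.05 CPM at 8 h (130 counts over both libraries), against 0 counts in both 0 h libraries, at least 53.7-fold higher against a floor of 3 counts over the group (edgeR adjusted p = 9.12e-10). Il1a, which encodes the sister ligand IL-1 alpha, had 2.5 and 3.65 CPM at 8 h and 1 count in all at 0 h, a ratio of 71.8-fold (95% counting interval 12.4 to 2886); such intervals cover counting error only. Casp4 (caspase-11 in mice), an inflammatory caspase that acts upstream of IL-1b release, had 6.98 and 10.6 CPM at 8 h, against 2.49 and 3.25 CPM at 0 h (log2 1.61, SE 0.23, edgeR adjusted p = 8.16e-06). Casp1 and Il18, of the same list and named after their values were seen, did not pass the threshold (log2 -1.55 and 0.17, edgeR adjusted p = 0.105 and 0.879). Il1b and Il1a, under 1 CPM in both 0 h libraries, passed the filter on low counts only through libraries where they were higher. The share and median that follow are thus tilted towards rises. Of the 6 members of this list tested, 4 rose and none fell, with a median log2 change of 1.58. The fourth, Il33, had 5.52 and 12.3 CPM at 8 h, against 2.58 and 3.51 CPM at 0 h (log2 1.55, SE 0.51, edgeR adjusted p = 0.028), and lost its call without the KO-2 library of 8 h (log2 0.86, adjusted p = 0.379), without either 0 h library, and under DESeq2 (adjusted p = 0.0599).

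Most genes for NF-kB subunits and for proteins that restrain NF-kB rose. Of 26 members tested 18 rose, none fell and 8 did not pass the threshold, with a median log2 change of 0.94. Among those 8, named after their values were seen, were the subunits Rela and Rel (log2 0.15 and 0.63, edgeR adjusted p = 0.246 and 0.057). The inhibitors Cyld, Otud7b, N4bp1 and Tnip2 were also among them. Nfkbia (ENSMUSG00000021025, mm9 chromosome 12, 56590398 to 56593634, minus strand), which encodes the inhibitor IkB-alpha, had 115 and 132 CPM at 8 h, against 18 and 21.3 CPM at 0 h (log2 2.66, SE 0.13, edgeR adjusted p = 4.5e-14). Zc3h12a (ENSMUSG00000042677, mm9 chromosome 4, 124795667 to 124805084, minus strand) encodes regnase-1, an RNase that cleaves inflammatory mRNAs, Il6 among them. It had 49.3 and 54.7 CPM at 8 h, against 4.32 and 5.18 CPM at 0 h (log2 3.45, SE 0.20, edgeR adjusted p = 1.13e-12). Nfkbiz, a nuclear IkB protein needed for a second wave of NF-kB targets, had 107 and 103 CPM at 8 h, against 32.2 and 22.6 CPM at 0 h (log2 1.93, SE 0.12, edgeR adjusted p = 1.37e-11). Bcl3, another nuclear IkB protein, had 50.8 and 50.5 CPM at 8 h, against 15.2 and 13.6 CPM at 0 h (log2 1.81, SE 0.13, edgeR adjusted p = 6.92e-11). These 4 genes were chosen by this same test.

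Factors of inflammatory mRNA decay moved little apart from Zc3h12a. Of 10 tested, Zc3h12a rose, Zfp36 and Zfp36l2 fell, and the median log2 change was 0.03. Zfp36 encodes tristetraprolin, which binds AU-rich elements and speeds mRNA decay; it had 17.8 and 19.3 CPM at 8 h, against 31.5 and 25.6 CPM at 0 h (log2 -0.62, SE 0.15, edgeR adjusted p = 0.00434). This call was lost without the KO-1 library of 8 h (log2 -0.57, adjusted p = 0.0520) and without the KO-1 library of 0 h (log2 -0.46, adjusted p = 0.0854). Zfp36l2, of the same family, had 79.5 and 83.4 CPM at 8 h, against 104 and 104 CPM at 0 h (log2 -0.35, SE 0.11, edgeR adjusted p = 0.0253), and its call was lost without any 1 of the 4 libraries (adjusted p between 0.0636 and 0.142).

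Chemokines that attract neutrophils through the receptor CXCR2 were among the genes with the largest rises. Of the 7 CXC chemokines on this list, all tested, 5 rose and none fell, with a median log2 change of 5.36. The 2 that did not pass the threshold, named after their values were seen, were Pf4 and Cxcl15 (log2 0.08 and -2.11, edgeR adjusted p = 0.874 and 0.109). Cxcl1 (ENSMUSG00000029380, mm9 chromosome 5, 91320267 to 91322141, plus strand) had 69.1 and 134 CPM at 8 h, against 0.582 and 1.84 CPM at 0 h (log2 6.39, SE 0.60, edgeR adjusted p = 1.21e-08). Cxcl5 (ENSMUSG00000029371, mm9 chromosome 5, 91188325 to 91190651, plus strand) had 319 and 441 CPM at 8 h, against 7.15 and 10.0 CPM at 0 h (log2 5.47, SE 0.28, edgeR adjusted p = 1.14e-13). Cxcl2 (ENSMUSG00000058427, mm9 chromosome 5, 91332897 to 91334935, plus strand) had 15.4 and 24.1 CPM at 8 h, against 0.665 and 0.263 CPM at 0 h (log2 5.36, SE 0.46, edgeR adjusted p = 2.09e-09). These 3 genes were chosen by this same test, and KO-2 was the higher library at 8 h in each of them. Cxcl3, the fourth neighbour of that family, had 6.98 and 10.4 CPM at 8 h and 3 counts in all at 0 h, a ratio of 67.7-fold (95% counting interval 22.8 to 332).

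Chemokines of the CC family, which draw monocytes, lymphocytes and eosinophils, rose in 10 of 16 tested and fell in 1, with a median log2 change of 2.26. Members such as Ccl11 passed the filter on low counts only through libraries where they were higher, which tilts this share towards rises. Ccl2 (ENSMUSG00000035385, mm9 chromosome 11, 81849073 to 81850955, plus strand), the main monocyte attractant, had 577 and 595 CPM at 8 h, against 29.8 and 30.9 CPM at 0 h (log2 4.27, SE 0.13, edgeR adjusted p = 5.78e-18). Ccl7, a second monocyte attractant, had 167 and 153 CPM at 8 h, against 14.5 and 15.4 CPM at 0 h (log2 3.42, SE 0.13, edgeR adjusted p = 2.08e-15). Ccl20 (ENSMUSG00000026166, mm9 chromosome 1, 83113341 to 83115742, plus strand), the ligand of CCR6 on Th17 and dendritic cells, had 40.6 and 42.6 CPM at 8 h, against 1.08 and 1.84 CPM at 0 h (log2 4.83, SE 0.25, edgeR adjusted p = 2.15e-13). Replicates differed little in these 3 genes, chosen by this same test, compared with the change between times. Ccl11, which encodes eotaxin, had 3.54 and 5.9 CPM at 8 h and 2 counts in all at 0 h, a ratio of 55.1-fold (95% counting interval 14.8 to 462). The member that fell, named after its value was seen, was Ccl27a, which lost its call without the KO-2 library of 0 h (adjusted p = 0.0749) and under DESeq2 (adjusted p = 0.0691). Its near-identical copies could share its reads, as could Ccl2, Ccl7 and Ccl12.

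Of the interferon-inducible CXC chemokines, Cxcl10, a T cell attractant, had 42.3 and 41.2 CPM at 8 h, against 13 and 8.77 CPM at 0 h (log2 1.94, SE 0.14, edgeR adjusted p = 1.31e-10). Cxcl9 was low, at 1.35 and 1.72 CPM at 8 h, against 0.249 and 0.439 CPM at 0 h (log2 2.13, SE 0.56, edgeR adjusted p = 0.00554), and lost its call without the KO-1 library of 0 h (log2 1.78, adjusted p = 0.0656). Among the 4 chemokines of resting tissue tested, 2 rose and 1 fell. Cx3cl1, which encodes membrane-bound fractalkine, had 77.6 and 109 CPM at 8 h, against 22 and 27.8 CPM at 0 h (log2 1.90, SE 0.22, edgeR adjusted p = 3.91e-07). Cxcl16, also made in a membrane-bound form, rose by log2 1.95 (edgeR adjusted p = 6.42e-09). Cxcl12, which retains leukocytes and stem cells in tissue, went the other way: it had 517 and 407 CPM at 8 h, against 709 and 584 CPM at 0 h (log2 -0.48, SE 0.15, edgeR adjusted p = 0.022). Its call was lost without the KO-2 library of 8 h (log2 -0.32, adjusted p = 0.240), without the KO-1 library of 0 h (log2 -0.34, adjusted p = 0.225) and under DESeq2 (adjusted p = 0.0530).

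The promoters of Cxcl1, Cxcl2, Ccl20 and Nfkbia are shown because these genes rose early and strongly and each window holds a letter match to a common form of the NF-kB motif. The sequences are the 120 bases before each gene's start, from RefSeq (GRCm38.p6), at chr5:90891125-90891244 (plus strand) for Cxcl1, chr5:90903779-90903898 (plus strand) for Cxcl2, chr1:83116646-83116765 (plus strand) for Ccl20 and chr12:55492648-55492767 (minus strand) for Nfkbia. Capitals mark matches to GGGANNNNCC on either strand.
Cxcl1: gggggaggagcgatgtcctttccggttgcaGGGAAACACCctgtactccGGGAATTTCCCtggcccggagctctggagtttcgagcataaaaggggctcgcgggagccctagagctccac
Cxcl2: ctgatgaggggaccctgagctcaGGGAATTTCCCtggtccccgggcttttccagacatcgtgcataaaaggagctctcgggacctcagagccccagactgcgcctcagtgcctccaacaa
Ccl20: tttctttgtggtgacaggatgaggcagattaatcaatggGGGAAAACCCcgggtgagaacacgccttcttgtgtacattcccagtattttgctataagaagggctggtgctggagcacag
Nfkbia: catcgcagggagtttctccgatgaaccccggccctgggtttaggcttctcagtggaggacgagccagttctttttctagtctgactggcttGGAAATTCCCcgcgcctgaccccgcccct
In Cxcl1 the matches began 90, 71 and 70 bases before the start, and in Cxcl2 they began 97 and 96 bases before it, the pairs 1 base apart being the same site read on both strands. The match in Ccl20 began 81 bases and the one shown in Nfkbia 29 bases before the start. Another match in Nfkbia began 212 bases before the start, outside the bases shown.

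In windows of 300 bases, 250 before to 50 after the start, the motif was present in 20 of 53 promoters (37.7%) of the 42 matched genes among the 61 that rose at least 8-fold. It was present in 14 of 37 promoters (37.8%) of the 25 matched genes among the 39 that fell at least 4-fold. Over all 32851 promoters the share was 20.7%, and over the 13269 promoters of tested genes it was 26.7%. The share was thus nearly the same for strongly raised and strongly lowered genes, and a match describes letters only. Among 7 other genes that rose, C3 held 3 matches and Steap4 held 2, and the windows of Saa3, Lcn2, Mmp3, Mt2 and Zc3h12a held none.

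Cytokines and colony-stimulating factors rose in 9 of 22 tested and fell in none, with a median log2 change of 0.97. Members such as Csf3 passed the filter on low counts only through libraries where they were higher, which tilts this share towards rises. Il6 (ENSMUSG00000025746, mm9 chromosome 5, 30339701 to 30346508, plus strand), which drives the acute-phase response, had 24.5 and 23.8 CPM at 8 h, against 2.16 and 1.93 CPM at 0 h (log2 3.55, SE 0.19, edgeR adjusted p = 3.59e-13). Csf3, which encodes the neutrophil growth factor G-CSF, had 6.15 and 9.87 CPM at 8 h and 1 count in all at 0 h, a ratio of 187-fold (95% counting interval 33.1 to 7436). Vessel growth factors rose too. Vegfc, which acts on lymphatic vessels, had 55 and 52.5 CPM at 8 h, against 15.9 and 14.2 CPM at 0 h (log2 1.84, SE 0.13, edgeR adjusted p = 5.03e-11). Vegfa, which acts on blood vessels, had 229 and 297 CPM at 8 h, against 152 and 138 CPM at 0 h (log2 0.86, SE 0.11, edgeR adjusted p = 2.67e-06).

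**Figure D2:**
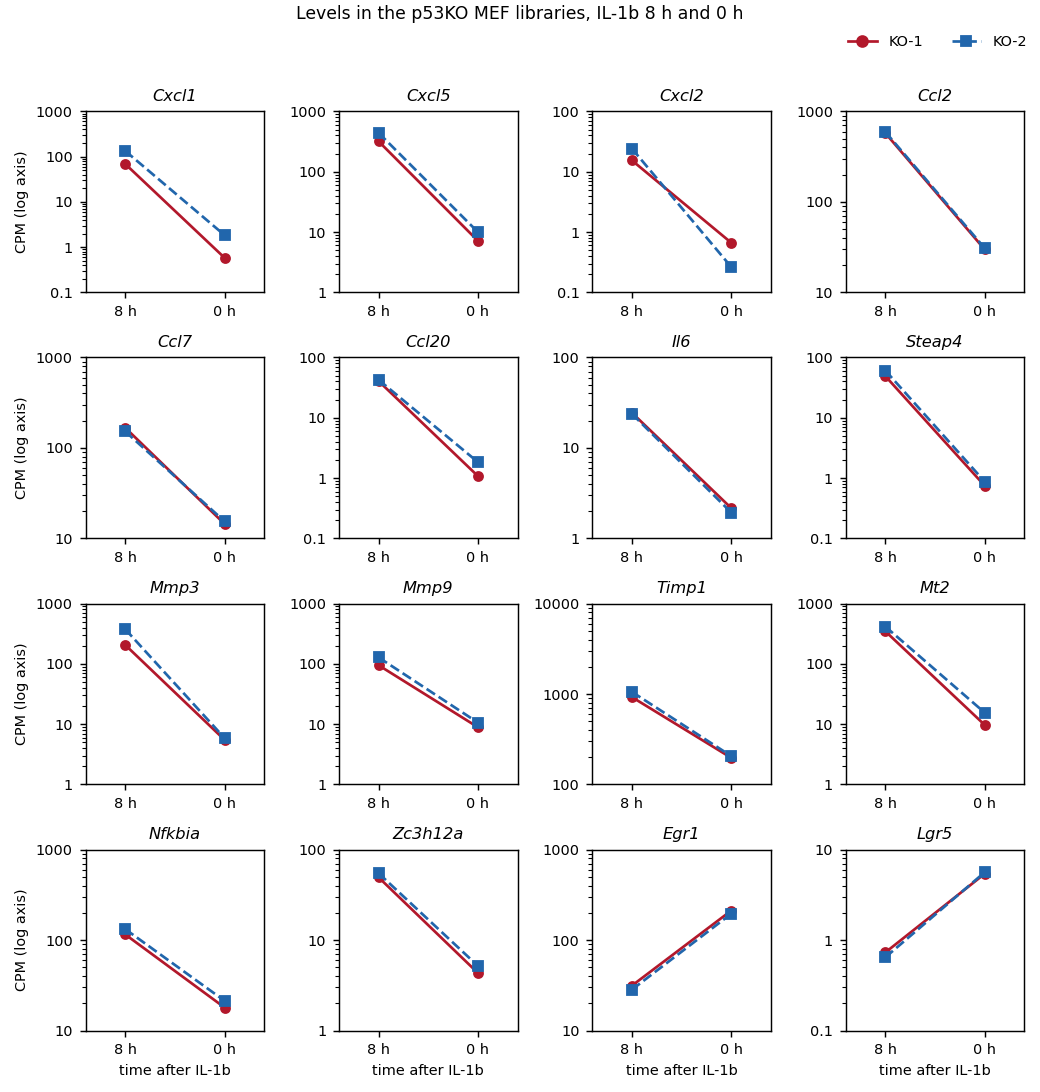
CPM on a log axis of 16 genes at 8 h (left) and 0 h (right) of IL-1b in KO-1 (red circles, solid line) and KO-2 (blue squares, dashed line). Levels are higher at 8 h in 14 genes, and Egr1 and Lgr5 run the other way. The genes were picked from those named for this same change.

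Acute-phase and iron-withholding genes rose in 12 of 14 tested, none fell, and the median log2 change was 2.64. A further 9 of the 23 listed were below the filter on low counts. Members under 1 CPM in both 0 h libraries, such as Saa3, Lcn2 and Hp, passed it only through libraries where they were higher. The share and the median are thus those of tested members, which the filter tilts towards rises. Saa3, a serum amyloid A made outside the liver, had 27.5 and 49.3 CPM at 8 h and 2 counts in all at 0 h, a ratio of 448-fold (95% counting interval 124 to 3705). Lcn2, which encodes lipocalin-2, a protein that binds bacterial siderophores, had 7.08 and 17.2 CPM at 8 h and 1 count at 0 h, a ratio of 282-fold (95% counting interval 50.2 to 11204). The KO-2 library was the higher of the 2 at 8 h in both genes. Steap4 (ENSMUSG00000012428, mm9 chromosome 5, 7960472 to 7982213, plus strand), a metalloreductase, had 49.2 and 60.9 CPM at 8 h, against 0.748 and 0.877 CPM at 0 h (log2 6.06, SE 0.25, edgeR adjusted p = 2.48e-15). Hp, which encodes haptoglobin, a binder of free haemoglobin, had 5.94 and 8.48 CPM at 8 h, against 0.249 and 0.0877 CPM at 0 h (log2 5.30, SE 0.50, edgeR adjusted p = 8.49e-09). Serpina3g, of a cluster of similar antichymotrypsin-like genes, had 118 and 106 CPM at 8 h, against 26.1 and 33 CPM at 0 h (log2 1.93, SE 0.15, edgeR adjusted p = 2.67e-10). Serpina3f, of the same cluster, had 3.75 and 3.01 CPM at 8 h and 0 counts at 0 h, at least 26.4-fold higher. Reads can be split between these similar genes, so the values of single members are uncertain.

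Complement genes were mixed and leaned down, with 2 of 16 higher, 7 lower and a median log2 change of -0.41. C3, the central component, had 14.2 and 19.6 CPM at 8 h, against 2.58 and 2.46 CPM at 0 h (log2 2.74, SE 0.27, edgeR adjusted p = 3.42e-08). The second that rose, named after its value was seen, was Cd55, which encodes a protein that shields cells from complement; its call was lost without the KO-2 library of 8 h (log2 0.61, adjusted p = 0.193) or the KO-1 library of 0 h (log2 0.55, adjusted p = 0.221). Masp1, a protease of the lectin branch, had 22.3 and 22.8 CPM at 8 h, against 44 and 48.9 CPM at 0 h (log2 -1.04, SE 0.11, edgeR adjusted p = 7.6e-08). C3ar1, the receptor for C3a, had 9.9 and 6.87 CPM at 8 h, against 19.9 and 18.3 CPM at 0 h (log2 -1.19, SE 0.20, edgeR adjusted p = 0.000114). C1qa, a chain of the first component, had 24 and 17.8 CPM at 8 h, against 36 and 33 CPM at 0 h (log2 -0.72, SE 0.15, edgeR adjusted p = 0.000867). C3ar1 and C1qa are typical of macrophages.

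Enzymes that make or counter reactive nitrogen and oxygen rose in 10 of 13 tested and fell in 1, with a median log2 change of 1.73. A further 3 of the 16 listed were below the filter on low counts. Nos2, Acod1 and Arg2, under 1 CPM in both 0 h libraries, passed it only through libraries where they were higher. The share and the median are thus tilted towards rises. Nos2, the inducible nitric oxide synthase, had 10.3 and 12.7 CPM at 8 h (217 counts), against 0 counts at 0 h, at least 89.6-fold higher (edgeR adjusted p = 1.07e-10). Gch1, which makes the cofactor that nitric oxide synthases need, had 20.9 and 23.8 CPM at 8 h, against 3.41 and 3.95 CPM at 0 h (log2 2.60, SE 0.23, edgeR adjusted p = 3.77e-09). Ass1, which remakes their substrate arginine from citrulline, had 80.0 and 102 CPM at 8 h, against 35.8 and 36.9 CPM at 0 h (log2 1.32, SE 0.12, edgeR adjusted p = 1.01e-08). The arginases, which break arginine down and are named after their values were seen, also rose. Arg1 had 16.4 and 15.9 CPM at 8 h, against 4.07 and 3.07 CPM at 0 h (log2 2.17, SE 0.32, edgeR adjusted p = 1.6e-05). Arg2 had 60 counts in all at 8 h and 3 at 0 h (edgeR adjusted p = 2.23e-06). Sod2, the mitochondrial superoxide dismutase, had 135 and 176 CPM at 8 h, against 45.9 and 47.7 CPM at 0 h (log2 1.73, SE 0.13, edgeR adjusted p = 2.89e-10). Acod1, which makes itaconate, had 8.02 and 3.86 CPM at 8 h and 1 count in all at 0 h, a ratio of 140.0-fold (95% counting interval 24.6 to 5577). The member that fell, named after its value was seen, was Nox4, an oxidase of fibroblasts.

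Markers of macrophages were measured beside these genes, because Acod1, Nos2, Il1b and C1qa are also expressed there. Of 14 tested, Cd14, Itgam and Lyz2 rose and Cd68, C1qa and Cx3cr1 fell. The call of Lyz2 was lost without the KO-1 library of 8 h (adjusted p = 0.0648) or the KO-2 library of 0 h (adjusted p = 0.0678), and that of Cd68 without the KO-2 library of 8 h (adjusted p = 0.397) or the KO-1 library of 0 h (adjusted p = 0.162) and under DESeq2 (adjusted p = 0.0689). Their summed level was 592 and 496 CPM at 8 h, against 463 and 409 CPM at 0 h, and Cd163 had 0 counts in all 4 libraries. Cd14, the LPS co-receptor, had 35.2 and 38.2 CPM at 8 h, against 12.9 and 12.9 CPM at 0 h (log2 1.51, SE 0.14, edgeR adjusted p = 5.84e-09). Cx3cr1, the fractalkine receptor, had 6.77 and 4.83 CPM at 8 h, against 20.2 and 22 CPM at 0 h (log2 -1.86, SE 0.17, edgeR adjusted p = 5.32e-09). The part of such cells in the results was not tested, and in bulk libraries fewer cells of a type and less RNA per cell cannot be told apart. Endothelial markers summed to 12.9 and 16.6 CPM at 8 h, against 21.5 and 20.2 CPM at 0 h. Of 6 tested, Cdh5 rose and Kdr fell, and each call was lost when some 1 library was left out. Epithelial markers summed to 57.4 and 46.6 CPM at 8 h, against 53.2 and 50.5 CPM at 0 h, with none of 7 called. Of the other marker lists, 1 of 2 muscle, 1 of 7 neural and 1 of 3 adipocyte genes fell, and no erythroid gene reached the level tested.

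Metallothioneins, small proteins that bind zinc and copper, rose far more than the targets of NRF2, the sensor of oxidative stress. Mt2 (ENSMUSG00000031762, mm9 chromosome 8, 96696518 to 96697467, plus strand) had 347 and 415 CPM at 8 h, against 9.72 and 15.5 CPM at 0 h (log2 4.92, SE 0.22, edgeR adjusted p = 8.57e-15). Mt1 had 185 and 217 CPM at 8 h, against 31.2 and 37.2 CPM at 0 h (log2 2.56, SE 0.17, edgeR adjusted p = 1.89e-11). Over the whole list of 18, 7 rose and 2 fell, with a median log2 change of 0.14. Fth1, the ferritin heavy chain, had 922 and 975 CPM at 8 h, against 567 and 584 CPM at 0 h (log2 0.72, SE 0.09, edgeR adjusted p = 8.7e-07). Srxn1, a sulfiredoxin, rose by log2 0.85 (edgeR adjusted p = 4.13e-05).

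Matrix metalloproteinases and their inhibitors split in both directions, with 10 of 26 higher, 8 lower and a median log2 change of -0.11. The 4 with the smallest adjusted p were all higher. Mmp3 (ENSMUSG00000043613, mm9 chromosome 9, 7445822 to 7455972, plus strand), which encodes stromelysin-1, had 206 and 375 CPM at 8 h, against 5.49 and 5.88 CPM at 0 h (log2 5.67, SE 0.36, edgeR adjusted p = 1.21e-11). Mmp10, which encodes stromelysin-2, had 18.5 and 24.5 CPM at 8 h, against 0.748 and 0.877 CPM at 0 h (log2 4.71, SE 0.30, edgeR adjusted p = 6.62e-12). Mmp9, a gelatinase, had 94.8 and 128 CPM at 8 h, against 8.89 and 10.6 CPM at 0 h (log2 3.51, SE 0.18, edgeR adjusted p = 1.74e-13). The inhibitor Timp1 (ENSMUSG00000001131, mm9 chromosome X, 20447292 to 20451861, plus strand) had 924 and 1055 CPM at 8 h, against 197 and 206 CPM at 0 h (log2 2.30, SE 0.10, edgeR adjusted p = 6.53e-15). The proteases described and this inhibitor were raised side by side in both KO-1 and KO-2. Among the 8 that fell, named after their values were seen, were the protease Adamts5 and the inhibitor Timp3 (log2 -1.41 and -0.45, edgeR adjusted p = 3.3e-11 and 0.0051).

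Adhesion and hyaluronan genes rose in 10 of 15 tested and fell in 2, with a median log2 change of 1.08. Vcam1, which binds leukocyte integrins, had 408 and 411 CPM at 8 h, against 179 and 173 CPM at 0 h (log2 1.22, SE 0.07, edgeR adjusted p = 4.51e-12). Tnc, which encodes the matrix protein tenascin-C, had 5779.7 and 6056 CPM at 8 h, against 2492 and 1903 CPM at 0 h (log2 1.43, SE 0.16, edgeR adjusted p = 1.5e-07). Itgb3, an integrin chain, had 59.1 and 64.9 CPM at 8 h, against 27.8 and 23.7 CPM at 0 h (log2 1.27, SE 0.13, edgeR adjusted p = 6.6e-08). Tnfaip6, a hyaluronan-binding protein of inflamed tissue, rose by log2 0.93 (edgeR adjusted p = 7.69e-07). The members that fell, named after their values were seen, were Mcam and Thbs1. Thbs1, which encodes thrombospondin-1, had 3252 and 2641 CPM at 8 h, against 4487 and 3681 CPM at 0 h (log2 -0.47, SE 0.12, edgeR adjusted p = 0.00496), and lost its call without the KO-2 library of 8 h (log2 -0.33, adjusted p = 0.104) or the KO-1 library of 0 h (log2 -0.32, adjusted p = 0.12).

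Structural matrix genes mostly fell or did not pass the threshold. Of 22 collagen genes 1 rose and 7 fell, with a median log2 change of -0.22, and without a filter on low counts 12 fell. The 1 that rose was Col5a3, a chain of type V collagen, with 348 and 444 CPM at 8 h, against 84.8 and 95.4 CPM at 0 h (log2 2.14, SE 0.18, edgeR adjusted p = 2.9e-09). Col8a1, a short-chain collagen of vessel walls, had 214 and 173 CPM at 8 h, against 314 and 317 CPM at 0 h (log2 -0.70, SE 0.08, edgeR adjusted p = 5.79e-07). Col11a1, a fibrillar collagen, had 549 and 567 CPM at 8 h, against 896 and 819 CPM at 0 h (log2 -0.62, SE 0.10, edgeR adjusted p = 3.14e-05). Among 30 fibroblast and matrix genes 6 rose and 7 fell, with a median of -0.02. The rises numbered 2 without the KO-2 library of 8 h and 3 without the KO-1 library of 0 h, and the falls numbered 3 without the KO-2 library of 0 h. Twist2, a mesenchymal transcription factor, had 86.8 and 80.3 CPM at 8 h, against 29.3 and 33.5 CPM at 0 h (log2 1.41, SE 0.10, edgeR adjusted p = 1.05e-10). Fbln5, which helps to assemble elastic fibres, had 361 and 309.6 CPM at 8 h, against 557 and 563 CPM at 0 h (log2 -0.74, SE 0.07, edgeR adjusted p = 2e-08).

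Contractile genes and other targets of the serum response factor fell in 13 of 20 tested and rose in 1, with a median log2 change of -0.43. The 1 that rose, named after its value was seen, was Actn1, which encodes an actin cross-linker; its call was lost without the KO-1 library of 8 h (adjusted p = 0.492) or the KO-2 library of 0 h (adjusted p = 0.26) and with only the compared groups fitted (adjusted p = 0.0673). Lmod1, an actin nucleator of smooth muscle, had 17.9 and 13.3 CPM at 8 h, against 54.2 and 42.9 CPM at 0 h (log2 -1.64, SE 0.16, edgeR adjusted p = 1.98e-08). Myl9, a myosin light chain, had 192 and 147 CPM at 8 h, against 337 and 319 CPM at 0 h (log2 -0.96, SE 0.10, edgeR adjusted p = 5.36e-08). Ccn1, a matricellular protein, had 319 and 229 CPM at 8 h, against 600.3 and 526 CPM at 0 h (log2 -1.04, SE 0.11, edgeR adjusted p = 8e-08). Srf, the gene of the response factor itself, had 55.8 and 49.9 CPM at 8 h, against 85.4 and 83.3 CPM at 0 h (log2 -0.67, SE 0.08, edgeR adjusted p = 5.63e-07). These 4 genes were chosen by this same test.

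Of 28 genes of the TGF-beta and BMP pathways 7 rose and 8 fell, with a median log2 change of -0.11; the falls numbered 4 without the KO-1 library of 8 h and 5 without the KO-2 library of 0 h. The ligands moved both ways. Tgfb3, a ligand, had 142 and 145 CPM at 8 h, against 328 and 338 CPM at 0 h (log2 -1.22, SE 0.08, edgeR adjusted p = 6.62e-12). Tgfb2 also fell, while Tgfb1 and Inhba, an activin chain, rose (log2 -0.49, 0.44 and 0.61; edgeR adjusted p = 0.000432, 0.0122 and 0.00258), all named after their values were seen. The call of Tgfb1 was lost without the KO-1 library of 8 h (adjusted p = 0.116) or the KO-2 library of 0 h (adjusted p = 0.0866), and that of Inhba without the KO-2 library of 0 h (adjusted p = 0.0566). Tgfbr3, the co-receptor betaglycan, had 84.2 and 92.4 CPM at 8 h, against 34.2 and 34.4 CPM at 0 h (log2 1.36, SE 0.12, edgeR adjusted p = 2.61e-09). Bmp4, a BMP ligand, fell by 1.09 on the log2 scale (edgeR adjusted p = 9.54e-06), and Ltbp2, a matrix protein of the microfibrils, rose by log2 0.89 (edgeR adjusted p = 2.69e-06). Of 27 Wnt and Hedgehog genes 3 rose and 8 fell, with a median of -0.25; the falls numbered 5 without the KO-1 library of 8 h and 5 without the KO-2 library of 0 h. Ptch1, the Hedgehog receptor and a target of the pathway, had 66.9 and 64.4 CPM at 8 h, against 23 and 21.8 CPM at 0 h (log2 1.55, SE 0.11, edgeR adjusted p = 1.44e-10). Lgr5 (ENSMUSG00000020140, mm9 chromosome 10, 114887367 to 115024836, minus strand), an R-spondin receptor that amplifies Wnt signals, had 0.729 and 0.644 CPM at 8 h, against 5.4 and 5.61 CPM at 0 h (log2 -2.98, SE 0.39, edgeR adjusted p = 2.84e-06). Dkk3, of the Dickkopf family, had 59.5 and 72.8 CPM at 8 h, against 114 and 129 CPM at 0 h (log2 -0.87, SE 0.14, edgeR adjusted p = 3.41e-05).

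Interferon-stimulated genes were mildly higher. Of 43 tested 22 rose and none fell, with a median log2 change of 0.66, but 10 rose without the KO-2 library of 0 h. Gbp2, a guanylate-binding protein of antimicrobial defence, had 32.3 and 42.7 CPM at 8 h, against 10.5 and 7.72 CPM at 0 h (log2 2.04, SE 0.20, edgeR adjusted p = 2.51e-08). Ifit3, which takes part in sensing viral RNA, had 14.3 and 16.3 CPM at 8 h, against 5.98 and 5.26 CPM at 0 h (log2 1.44, SE 0.15, edgeR adjusted p = 6.6e-08). Ifitm3, which blocks virus entry, had 317 and 319 CPM at 8 h, against 214 and 191 CPM at 0 h (log2 0.65, SE 0.10, edgeR adjusted p = 1.59e-05). Interferon regulatory factors and receptors rose in 7 of 14 with a median of 0.37, among them Ifngr2, a chain of the interferon-gamma receptor (log2 0.68, SE 0.07, edgeR adjusted p = 4.51e-08). Irf1, a factor that NF-kB induces, had 37.1 and 43.9 CPM at 8 h, against 21.2 and 23 CPM at 0 h (log2 0.87, SE 0.15, edgeR adjusted p = 8.94e-05). Genes of antigen presentation on MHC class I rose in 10 of 19 and fell in none, with a median of 0.55. B2m, the light chain of class I, had 379 and 396 CPM at 8 h, against 292 and 288 CPM at 0 h (log2 0.42, SE 0.06, edgeR adjusted p = 1.13e-05). Reads of the H2 and Gbp genes can be split between close paralogs, so the values of single members are uncertain.

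Receptors of innate immunity and of the TNF family rose in 9 of 25 tested and fell in 2, with a median log2 change of 0.19. Tlr2, a receptor for bacterial lipoproteins, had 17.7 and 19.6 CPM at 8 h, against 7.9 and 7.54 CPM at 0 h (log2 1.27, SE 0.17, edgeR adjusted p = 4.19e-06). Nod1, a cytosolic receptor for peptidoglycan, had 39.3 and 40.2 CPM at 8 h, against 18.6 and 21.1 CPM at 0 h (log2 1.00, SE 0.11, edgeR adjusted p = 8.96e-08). Fas, a death receptor, had 11.3 and 15.7 CPM at 8 h, against 3.49 and 3.51 CPM at 0 h (log2 1.94, SE 0.23, edgeR adjusted p = 5.09e-07). Of 21 STAT, SOCS and IL-6 family receptor genes 6 rose and 2 fell, with a median of 0.07. Socs3, the feedback inhibitor of IL-6 family signals, had 63.7 and 63 CPM at 8 h, against 20.9 and 23.9 CPM at 0 h (log2 1.5, SE 0.12, edgeR adjusted p = 6.17e-10). Stat5a, a signal transducer, had 44 and 44.2 CPM at 8 h, against 16.5 and 16.9 CPM at 0 h (log2 1.4, SE 0.12, edgeR adjusted p = 3.09e-09). Osmr, the oncostatin M receptor, had 217 and 237 CPM at 8 h, against 142 and 123 CPM at 0 h (log2 0.78, SE 0.09, edgeR adjusted p = 4.58e-07).

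Genes of prostaglandin synthesis and response rose in 7 of 17 tested and fell in 1, with a median log2 change of 0.15. The rises numbered 3 without the KO-2 library of 8 h, 3 without either 0 h library and 4 under DESeq2. Ptgs2, which encodes cyclooxygenase-2, had 302 and 278 CPM at 8 h, against 150.3 and 127 CPM at 0 h (log2 1.06, SE 0.12, edgeR adjusted p = 3.07e-07). Ptges, the inducible prostaglandin E synthase, had 20.8 and 31.6 CPM at 8 h, against 5.98 and 7.02 CPM at 0 h (log2 2.01, SE 0.21, edgeR adjusted p = 8.37e-08). Pla2g4a, the phospholipase that frees arachidonic acid, and the prostaglandin E synthases Ptges2 and Ptges3 did not pass the threshold (log2 0.14, 0.30 and 0.09; edgeR adjusted p = 0.266, 0.115 and 0.548), although Ptges2 was called with the 6 p53-/- libraries of 0 h as reference (log2 0.39, adjusted p = 0.00851). They are named after their values were seen. Ptgis, the prostacyclin synthase, rose by log2 0.64 (edgeR adjusted p = 3.12e-06).

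Growth factors moved both ways, with 7 of 23 higher, 7 lower and a median log2 change of -0.06; the falls numbered 4 without the KO-2 library of 8 h. Angptl4, a secreted inhibitor of lipoprotein lipase, had 68.1 and 51.2 CPM at 8 h, against 4.57 and 3.6 CPM at 0 h (log2 3.86, SE 0.17, edgeR adjusted p = 6.53e-15). Fgf7, a fibroblast factor that acts on epithelium, had 77.3 and 73.1 CPM at 8 h, against 27.5 and 27.4 CPM at 0 h (log2 1.45, SE 0.08, edgeR adjusted p = 3.59e-13). Igf1, an insulin-like growth factor, had 23.1 and 26.6 CPM at 8 h, against 47 and 53.9 CPM at 0 h (log2 -1.02, SE 0.13, edgeR adjusted p = 2.25e-06). Hbegf, a ligand of the EGF receptor, had 43.6 and 38.9 CPM at 8 h, against 70.2 and 65.6 CPM at 0 h (log2 -0.72, SE 0.09, edgeR adjusted p = 3.12e-06).

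Immediate early genes, which growth factors and stress switch on within minutes, were split at 8 h. Of 37 tested 12 rose and 15 fell, with a median log2 change of -0.36, and 6 rose without the KO-2 library of 0 h. Egr1, a zinc finger factor downstream of ERK, had 31.4 and 28.3 CPM at 8 h, against 212 and 196 CPM at 0 h (log2 -2.77, SE 0.12, edgeR adjusted p = 8.57e-15). The C/EBP factors, which partner NF-kB at acute-phase genes, went the other way. Cebpd had 66.3 and 56.1 CPM at 8 h, against 9.97 and 10.8 CPM at 0 h (log2 2.56, SE 0.14, edgeR adjusted p = 5.55e-13). Cebpb had 82.8 and 80.8 CPM at 8 h, against 26.8 and 26.8 CPM at 0 h (log2 1.61, SE 0.15, edgeR adjusted p = 1.78e-08). Ier3, an early gene that limits NF-kB activity and cell death, had 122 and 120.1 CPM at 8 h, against 48 and 48.8 CPM at 0 h (log2 1.32, SE 0.09, edgeR adjusted p = 5.19e-11).

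Genes of ribosome biogenesis rose a little in most cases: 19 of 27 tested rose, 1 fell, and the median log2 change was 0.38. The 1 that fell, named after its value was seen, was Myc, a driver of this programme, whose call was lost without the KO-2 library of 8 h (log2 -0.28, adjusted p = 0.0564). The rises numbered 6 without the KO-1 library of 8 h and 11 without the KO-2 library of 0 h. Polr1a, the large subunit of RNA polymerase I, had 149.6 and 133 CPM at 8 h, against 104 and 92.2 CPM at 0 h (log2 0.53, SE 0.10, edgeR adjusted p = 0.000252). Rrp9, a processing factor of ribosomal RNA, had 63.7 and 55.1 CPM at 8 h, against 41.6 and 39.5 CPM at 0 h (log2 0.55, SE 0.11, edgeR adjusted p = 0.000453). Of 37 cell cycle genes 8 rose and 3 fell, with a median of 0.10; the rises numbered 3 without the KO-1 library of 8 h, 4 without the KO-1 library of 0 h and 5 under DESeq2. Cdt1, a licensing factor for DNA replication, had 56.4 and 62.4 CPM at 8 h, against 45 and 38.7 CPM at 0 h (log2 0.50, SE 0.09, edgeR adjusted p = 0.000163). Ccnb2, a mitotic cyclin, had 44.5 and 42.2 CPM at 8 h, against 61.7 and 64.6 CPM at 0 h (log2 -0.54, SE 0.09, edgeR adjusted p = 5.96e-05).

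Known p53 target genes, measured here in p53-/- cells, showed no common direction. Of 39 tested 6 rose and 6 fell, with a median log2 change of -0.02, and the falls numbered 3 without the KO-2 library of 0 h. These shares lay near those over all genes tested (12.5% higher and 11.8% lower), so the counts do not set this list apart. Cdkn1a, which encodes the cell cycle inhibitor p21, had 34.2 and 46.5 CPM at 8 h, against 22.9 and 24.4 CPM at 0 h (log2 0.77, SE 0.15, edgeR adjusted p = 0.000574). Pmaip1, which encodes the death factor NOXA, had 18.9 and 14.1 CPM at 8 h, against 33 and 32 CPM at 0 h (log2 -0.98, SE 0.17, edgeR adjusted p = 9.38e-05). Of 18 genes of the BCL2 family and inhibitors of apoptosis 4 rose and 3 fell, with a median of 0.02; 2 rose without the KO-2 library of 8 h. Birc3, which encodes the NF-kB target cIAP2, had 26.4 and 34.5 CPM at 8 h, against 14.8 and 16 CPM at 0 h (log2 0.98, SE 0.13, edgeR adjusted p = 5.45e-06). Of 26 sterol genes 3 rose and 8 fell, with a median of -0.19; the falls numbered 1 without the KO-1 library of 8 h, 2 and 3 without the KO-1 and KO-2 libraries of 0 h, and 5 under DESeq2. Insig1, which holds back sterol synthesis, had 91.8 and 104 CPM at 8 h, against 154 and 169 CPM at 0 h (log2 -0.72, SE 0.09, edgeR adjusted p = 1.16e-06). Ch25h, which makes 25-hydroxycholesterol, had 25.4 and 25.3 CPM at 8 h, against 15.4 and 13.7 CPM at 0 h (log2 0.80, SE 0.12, edgeR adjusted p = 3.15e-05). Of 18 circadian genes 2 rose and 2 fell, also near the shares over all genes tested, with a median of -0.19. Tef, a clock output factor, fell by 0.42 on the log2 scale (edgeR adjusted p = 0.00099).

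**Figure D3:**
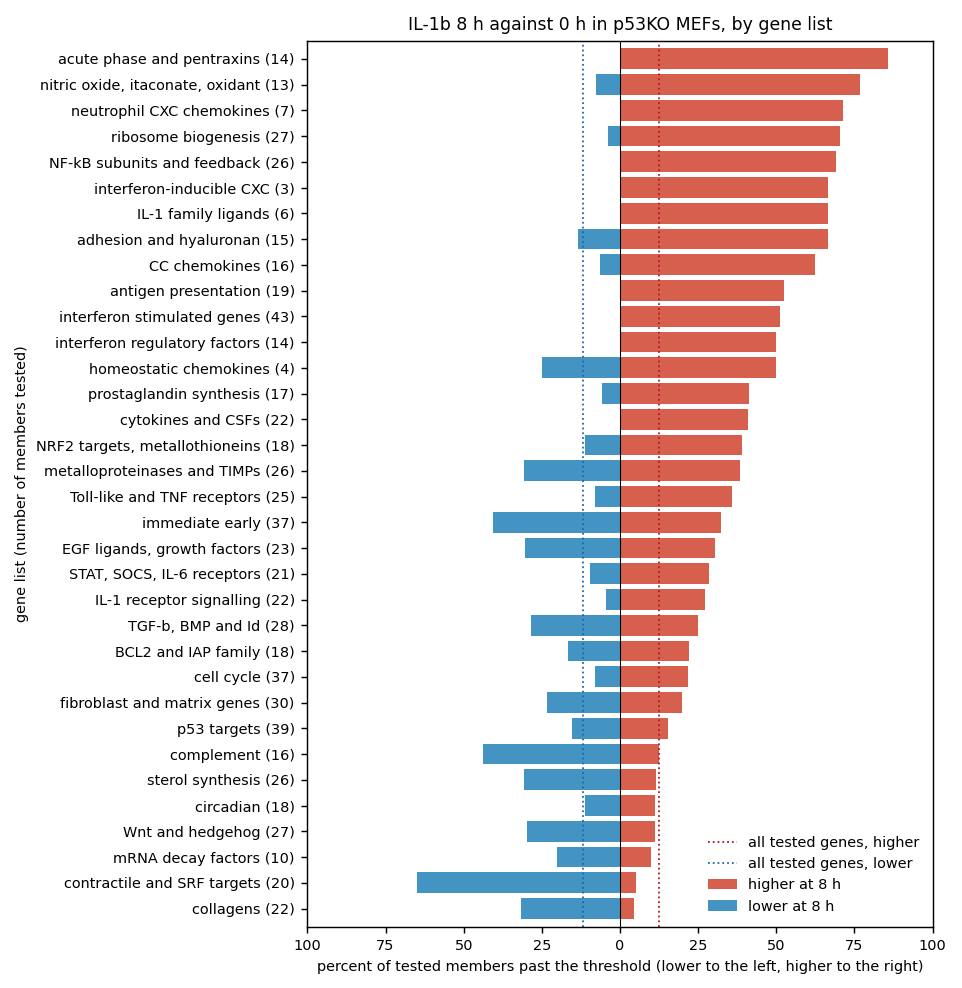
Percent of the tested members of each of 34 gene lists that were higher (red, to the right) or lower (blue, to the left) at 8 h than at 0 h of IL-1b in p53-/- MEFs. Members below the filter on low counts are left out. The dotted lines mark the shares over all genes tested, 12.5% higher and 11.8% lower; the acute-phase list has 12 of 14 members higher and the contractile list 13 of 20 lower.

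Among the largest rises outside these lists was Serpinb2, which encodes the plasminogen activator inhibitor PAI-2, with 26.1 and 26.5 CPM at 8 h, against 0.249 and 0.175 CPM at 0 h (log2 6.86, SE 0.33, edgeR adjusted p = 4.5e-14). Il13ra2, a decoy receptor for IL-13, had 21 counts at 8 h and 0 at 0 h, at least 8.67-fold higher. Others of the 15 largest rises rested on few counts. Krt6a had 18 counts at 8 h, nearly all in KO-1, and lost its call without that library (adjusted p = 0.366) or without either 0 h library; Tmem179 lost its call without either 0 h library, and Tnfrsf9 without the KO-2 library of 8 h (adjusted p = 0.114) or the KO-1 library of 0 h (adjusted p = 0.0503). Of the 15 largest falls, those of Lgr5, Scn7a, Egr1 and Palmd had the most counts at 0 h. Scn7a, an atypical sodium channel, had 0.417 and 0.751 CPM at 8 h, against 4.16 and 3.95 CPM at 0 h (log2 -2.77, SE 0.42, edgeR adjusted p = 1.68e-05). Palmd, which encodes palmdelphin, had 1.25 and 1.18 CPM at 8 h, against 7.65 and 8.33 CPM at 0 h (log2 -2.70, SE 0.30, edgeR adjusted p = 2.29e-07). Chodl, a lectin-like membrane protein, had 1 count at 8 h, against 39 counts at 0 h (edgeR adjusted p = 0.00203).

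The 8 h libraries were next set against those of 3 h of IL-1b, to see which responses had passed their height and which were still building. They share the 8 h libraries with the comparison above. At 8 h 2559 genes were higher than at 3 h (18.5% of those tested) and 2357 were lower (17%), 35.5% in all. Immediate early genes had come down: 31 of 37 were lower at 8 h and none was higher, with a median log2 difference of -1.36. Contractile genes were lower in 20 of 20, growth factors in 16 of 23 and cytokines in 12 of 22, while cell cycle genes were higher in 19 of 37 and interferon-stimulated genes in 15 of 43. Lif, a cytokine of the IL-6 family, had 48.5 and 43.7 CPM at 8 h, against 858 and 1111 CPM at 3 h (log2 -4.41, SE 0.19, edgeR adjusted p = 1.68e-14). Hbegf had 43.6 and 38.9 CPM at 8 h, against 283 and 307 CPM at 3 h (log2 -2.84, SE 0.09, edgeR adjusted p = 5.8e-17). Bnip3, a mitochondrial protein of hypoxia and mitophagy, had 118 and 123 CPM at 8 h, against 26.2 and 29.4 CPM at 3 h (log2 2.11, SE 0.13, edgeR adjusted p = 7.63e-12). Txnip, a thioredoxin-binding protein, was higher at 8 h (log2 1.34, SE 0.09, edgeR adjusted p = 9.09e-12), and Noct, an early gene for a phosphatase of NADPH, was lower (log2 -2.58, SE 0.11, edgeR adjusted p = 7.51e-15).

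The inflammatory genes did not follow 1 course. Ccl20 had 1.08 and 1.84 CPM at 0 h, 11.5 and 15.4 CPM at 0.5 h, 71.1 and 81.9 CPM at 1 h, 230.2 and 283 CPM at 3 h and 40.6 and 42.6 CPM at 8 h. Nfkbia had 18 and 21.3 CPM at 0 h, 232 and 262 CPM at 0.5 h, 522 and 554 CPM at 1 h, 252 and 292 CPM at 3 h and 115 and 132 CPM at 8 h. These 2 genes were thus well past their highest level at 8 h, and Il6, Cxcl1 and Ptgs2 were also lower at 8 h than at 3 h (log2 -2.33, -1.31 and -2.59; edgeR adjusted p = 1.06e-13, 0.00286 and 5.7e-14). Mmp3 had 5.49 and 5.88 CPM at 0 h, 6.82 and 7.79 CPM at 0.5 h, 9.34 and 10.2 CPM at 1 h, 40.5 and 77.8 CPM at 3 h and 206 and 375 CPM at 8 h (log2 2.30, SE 0.28, edgeR adjusted p = 4.7e-07 for 8 h over 3 h). Saa3, Lcn2, Hp and C3 were also higher at 8 h than at 3 h, by log2 2.73, 2.76, 2.88 and 1.85 (edgeR adjusted p = 1.55e-08, 2.95e-05, 1.61e-06 and 3.84e-06). These 5 genes stood at their highest measured level at 8 h. Mt2 differed little between 8 h and 3 h (log2 -0.05, edgeR adjusted p = 0.853).

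**Figure D4:**
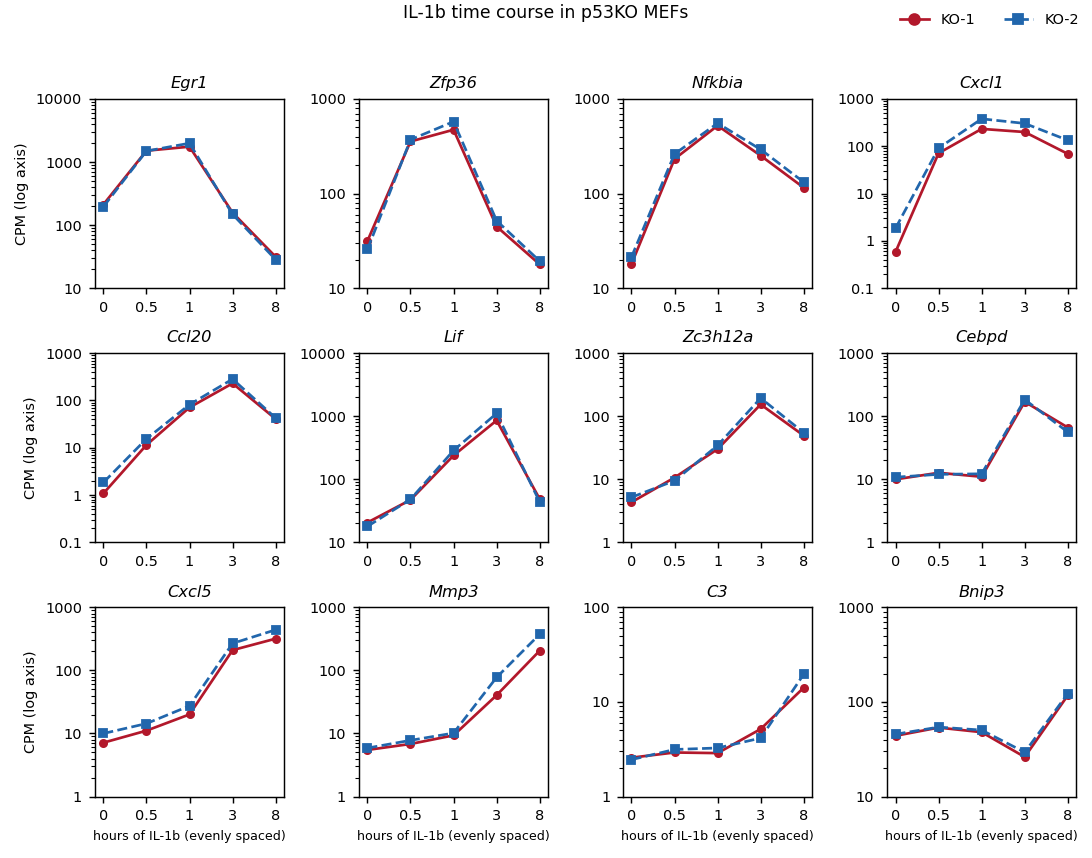
CPM on a log axis of 12 genes in KO-1 and KO-2 at 0, 0.5, 1, 3 and 8 h of IL-1b, evenly spaced on the x axis. Egr1 and Zfp36 are highest at 1 h, Ccl20 and Lif at 3 h, and Mmp3, C3 and Bnip3 at 8 h.

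TNF activates NF-kB through other receptors. A difference between IL-1b and TNF in the change at 8 h against 0 h was called for few genes. A p that misses the threshold does not show that the agents acted alike. The median difference was log2 1.25 over the 6 tested members of the IL-1 family ligand list, with none called. It was log2 -1.28 over the 3 interferon-inducible CXC chemokines, again with none called. The change was more positive with IL-1b for 33 genes (0.238% of those tested) and more negative for 37 (0.267%), 0.505% in all. With the replicates paired by their KO-1 and KO-2 names as a block in the fit, the numbers were 66 and 76. Nfkbiz had 107 and 103 CPM at 8 h and 32.2 and 22.6 CPM at 0 h of IL-1b, against 24.9 and 21.7 CPM at 8 h and 26.1 and 20.6 CPM at 0 h of TNF (log2 1.91, SE 0.20, edgeR adjusted p = 8.5e-06 for the difference of the changes). Zc3h12a had 49.3 and 54.7 CPM at 8 h of IL-1b, against 9.84 and 9.07 CPM at 8 h of TNF (log2 2.67, SE 0.35, edgeR adjusted p = 0.000195), and Cebpd had 66.3 and 56.1 CPM, against 15.5 and 21.6 CPM (log2 1.83, SE 0.23, edgeR adjusted p = 0.000112). At 0 h of TNF, Zc3h12a had 5.16 and 5.98 CPM and Cebpd had 10.7 and 10.7 CPM. With TNF, Nfkbiz at 8 h thus lay at its 0 h level, and the other two lay above theirs by less than with IL-1b. Cxcl5, Il6 and Steap4, named after their values were seen, also had a more positive change with IL-1b (log2 3.01, 2.30 and 3.10; edgeR adjusted p = 0.00181, 0.00684 and 0.0149). In the other direction, F2rl1, which encodes the protease-activated receptor PAR2, had 37.1 and 36.5 CPM at 8 h of IL-1b, against 74.1 and 74.6 CPM at 8 h of TNF (log2 -1.18, SE 0.14, edgeR adjusted p = 4.21e-05). Gjb2, a gap junction protein, and Slc20a1, a phosphate transporter, had differences of log2 -1.22 and -0.66. Each of the 8 libraries compared moved at least 1 of these counts by over 1.5 times when left out: the lowest counts were 18 and 9, without the KO-1 library of TNF 8 h, and the highest were 41 and 58, without the KO-1 library of IL-1b 8 h.

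LPS acts through TLR4, which shares MyD88 with the IL-1 receptor and also uses TRIF, the adaptor that leads to type I interferon. The change was more positive with IL-1b than with LPS for 68 genes (0.491%) and more negative for 475 (3.43%), 3.92% in all. The 68 became 123 with the paired block, 20 under DESeq2, 18 when only the compared groups were fitted and 37 without the KO-1 library of LPS 8 h. They numbered 39 without the KO-1 library of LPS 0 h and 41 without either library of IL-1b 0 h. Interferon-stimulated genes and class I genes stood apart: the change was more negative with IL-1b in 42 of 43 and 18 of 19 tested, with median differences of log2 -4.01 and -2.51, against 0.02 over all genes. Cxcl10 had 42.3 and 41.2 CPM at 8 h of IL-1b, against 2716 and 2338 CPM at 8 h of LPS (log2 -5.94, SE 0.21, edgeR adjusted p = 2.01e-16). Ifit1, an interferon-induced binder of viral RNA, had 22.2 and 17.9 CPM at 8 h of IL-1b, against 423 and 399 CPM at 8 h of LPS (log2 -4.30, SE 0.19, edgeR adjusted p = 2.52e-14). Of the neutrophil chemokines none differed past the threshold, with a median difference of log2 -0.20 over 7 genes, and of the metalloproteinases 1 of 26 did. Sterol genes had a more positive change with IL-1b in 10 of 26. St6gal1, a sialyltransferase, and Rgs2, a regulator of G protein signals, also had more positive changes with IL-1b (log2 0.83 and 1.84; edgeR adjusted p = 0.000183 and 0.000252).

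**Figure D5:**
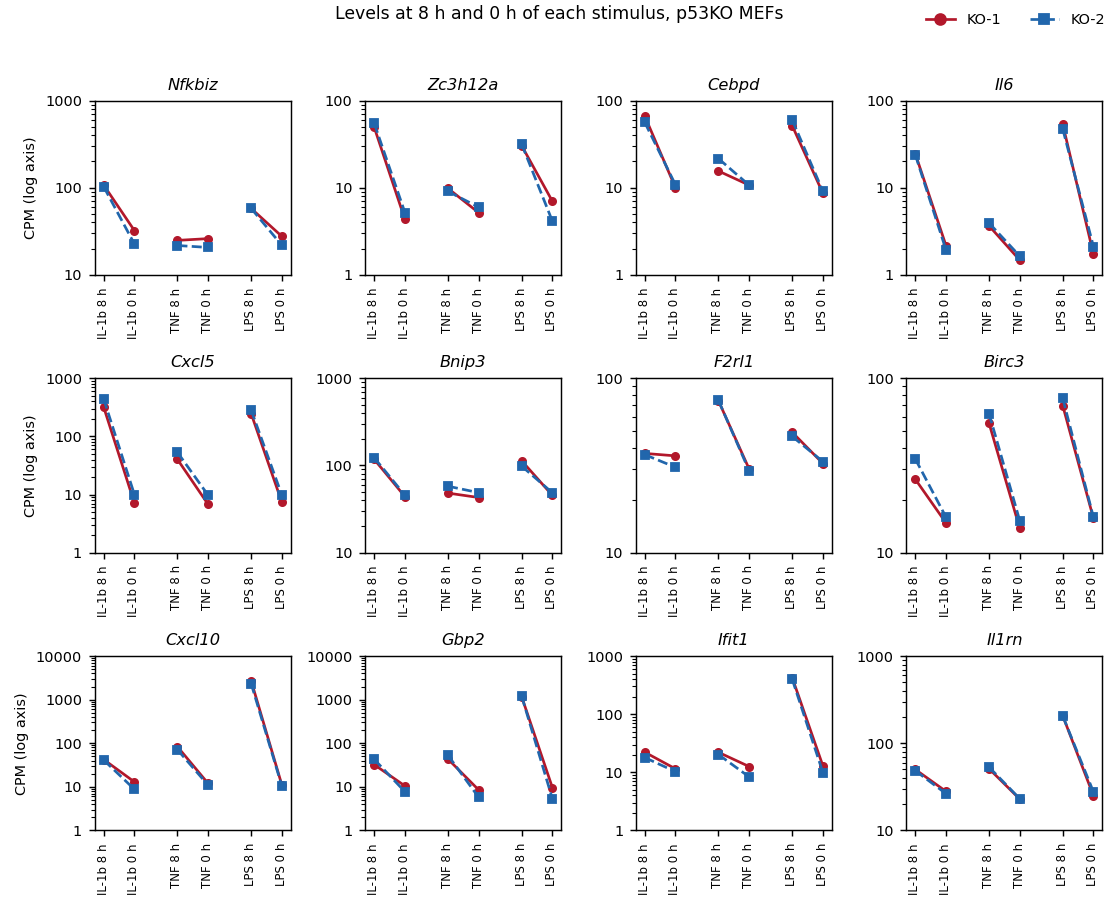
CPM on a log axis of 12 genes in KO-1 and KO-2 at 8 h and 0 h of IL-1b, TNF and LPS. Nfkbiz, Zc3h12a and Cebpd are higher at 8 h of IL-1b than at 8 h of TNF, and Cxcl10, Gbp2 and Ifit1 are far higher at 8 h of LPS than at 8 h of IL-1b.

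The change at 8 h of IL-1b was last set against that of WT MEFs, which have 1 library at each time. The WT changes have no replicate of their own, and their spread was taken to be that of the other groups. Of the 353 genes that rose at least 2-fold in p53-/- cells, 328 (92.9%) were higher at 8 h in WT cells, where 49.9% of all genes tested were; the median log2 change of the 353 was 1.66 in p53-/- cells and 1.58 in WT cells. Of the 312 that fell at least 2-fold, 289 (92.6%) were lower at 8 h in WT cells, against 49.8% of all genes tested, with medians of -1.37 and -0.99. Both sets were chosen by the p53-/- change, which places the p53-/- medians beyond 2-fold in advance. The medians therefore do not show which genotype responded more. Cxcl5 had 319 and 441 CPM at 8 h and 7.15 and 10.0 CPM at 0 h in p53-/- cells, against 1197 CPM at 8 h and 39.8 CPM at 0 h in WT cells. Mmp3 had 206 and 375 CPM at 8 h and 5.49 and 5.88 CPM at 0 h in p53-/- cells, against 495 CPM at 8 h and 8.92 CPM at 0 h in WT cells. Egr1 had 31.4 and 28.3 CPM at 8 h and 212 and 196 CPM at 0 h in p53-/- cells, against 98.1 CPM at 8 h and 377 CPM at 0 h in WT cells. The levels were thus higher in the WT libraries at both times for these 3 genes, while the change had the same sign.

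A difference between the genotypes in the change itself was called for 1 gene in each direction (0.00722% each and 0.0144% in all), and 1141 genes had an unadjusted p below 0.05. Rgs4, a regulator of G protein signals, had 31.8 and 27.2 CPM at 8 h and 24.5 and 23.3 CPM at 0 h in p53-/- cells, against 11.4 CPM at 8 h and 23.8 CPM at 0 h in WT cells (log2 1.37, SE 0.21, edgeR adjusted p = 0.00529). Pcdh7, a protocadherin of cell adhesion, had 104 and 99.5 CPM at 8 h and 85.7 and 81 CPM at 0 h in p53-/- cells, against 169 CPM at 8 h and 56.2 CPM at 0 h in WT cells (log2 -1.30, SE 0.18, edgeR adjusted p = 0.00189). The counts were 9 and 9 without the KO-1 library of 8 h, and the positive count was 3 without the KO-2 library of 8 h and 2 without the KO-2 library of 0 h. They were 20 and 19 with the paired block, 5 and 4 under DESeq2 and 28 and 49 without a filter on low counts, and Rgs4 was not called when only the compared groups were fitted (adjusted p = 0.0654). With 1 WT library at each time, a p that misses the threshold does not show that the genotypes responded alike.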

How the data were processed

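Poly(A) RNA of 45 MEF cultures was sequenced as stranded paired-end libraries, per the labels' protocols. The authors deposited raw counts per gene (unit: counts), made with STAR, featureCounts and DESeq on mm9, per the submitters' processing notes; versions, annotation release and strand setting are not given in the sources used here. The 5 rows that name no gene held 24.7% of all counts, mostly reads without a unique position, and were left out. Of 37991 genes, 32919 had a symbol. The 13851 that reached 1 CPM in 2 or more libraries were tested. A gene below 1 CPM in the IL-1b 0 h libraries was tested only if it reached that level in others. List shares of rises therefore hold for tested members only.

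A quasi-likelihood model (edgeR 4.0.16, limma 3.58.1, R 4.3.3) with TMM scaling (factors 0.889 to 1.07) and 1 mean for each of 30 genotype, agent and time groups was fitted over all 45 libraries, leaving 15 residual degrees of freedom. Contrasts were 8 h against 0 h, 8 h against 3 h, and the 8 h change of IL-1b minus that of TNF, of LPS and of WT cells. P-values were adjusted by Benjamini-Hochberg over all tested genes, with a threshold of 0.05. WT groups have 1 library and take their spread from the p53-/- groups. The script was tested on simulated data. Gene totals ran between 5619870 and 15355994 counts per library (median 9347770). For a gene at 0 in 1 group, the fold is set against 3 counts over the group; ratios on 1 to 3 counts have 95% exact counting intervals. Intervals and floors cover counting error only.

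Replicates were paired by the KO-1 and KO-2 names, which the labels repeat at every time and agent; the title of the KO-2 library of IL-1b 8 h gives replicate 21, read here as 2 from its KO-2 name. Deviations from the group means correlated within number at a median r of 0.191 over 105 pairs of groups (-0.169 to 0.504, across genes; 73 above 0.1), and at 0.042 between IL-1b 8 h and 0 h. The main model has no block, and the blocked model is an alternative. Others were DESeq2 1.42.0 (its Wald test, or its size factors in edgeR), other filters, other sets of libraries, and leaving out each library. The members and gene lists were chosen with earlier results of these data known. Named genes were the 15 largest called rises and falls that agreed in both replicates, the members of each list with the lowest adjusted p (at most 4), 5 per direction for each other contrast, Trp53 and Il1r1; genes outside this rule are named as such, and a few genes are not reported here. Gene coordinates are those of the deposited table (mm9); promoters are from RefSeq's GRCm38.p6 and were matched by symbol.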

Additional observations from a re-analysis of the deposited data

Results flagged for a closer look

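The change of Rgs4 at 8 h of IL-1b was more positive in p53-/- cells than in WT cells by 1.37 on the log2 scale, and that of Pcdh7 was lower in p53-/- cells, at -1.30; these are the 2 genes for which edgeR's test of the difference between genotypes passed the threshold, each with 1 WT library at each time. Between 2 times of the same treatment, 2559 genes were higher and 2357 were lower at 8 h than at 3 h of IL-1b in p53-/- cells, by the test of that difference.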

How the results depend on the processing

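Of the results and alternatives run, 1 value reversed its direction: Krt16, whose log2 change ran between -2.11 and 6.94 when 1 library was left out, the lowest without the KO-1 library of 8 h. For IL-1b 8 h against 0 h, DESeq2's Wald test called 1129 rises and 919 falls. Leaving out 1 library gave 1046 to 1286 rises and 972 to 1166 falls. The replicate block gave 2016 rises and 2007 falls, and the 6 p53-/- libraries of 0 h as reference gave 2421 and 2341. For 8 h against 3 h, leaving out 1 library gave 1731 to 2224 higher and 1665 to 2027 lower genes. For IL-1b minus TNF, the counts in the positive and negative direction were 82 and 104 without a filter, 66 and 76 with the replicate block, and 18 to 41 and 9 to 58 without 1 library. For IL-1b minus LPS, the positive count was 20 under DESeq2, 123 with the replicate block, 18 with only the compared groups and 37 to 75 without 1 library, and the negative count was 362 to 441 without 1 library. For p53-/- minus WT, the 2 counts were 5 and 4 under DESeq2, 28 and 49 without a filter, 20 and 19 with the replicate block, 1 and 2 with only the compared groups, and 1 to 9 and 1 to 9 without 1 library. Without 1 library, the counts for 8 h against 0 h and 8 h against 3 h all fell, while some of those for differences between changes rose. The cause was not tested.

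Over 216 values of named genes and 2610 alternatives, 96 lost their call, 80 of them when 1 library was left out, and 1 gained one, Ptges2; DESeq2 gave no adjusted p in 17 further cases. Calls lost without 1 library included those of Krt6a, Tmem179 and Tnfrsf9, with under 20 counts over both 8 h libraries, but also those of Cxcl12 and Thy1, with 8761 and 4605; the part of depth was not tested. The replicate block changed the call of none of the named genes. It moved 7 list counts by over 1.5 times, each to 3 or fewer.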

Other observations

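The 0 h libraries of the 3 agents, all taken before treatment, differed between agents by unequal amounts. A chi-square of the counts per degree of freedom was 1.35 between IL-1b 0 h and LPS 0 h in KO-1 and 1.71 in KO-2, and 3.71 between IL-1b 0 h and TNF 0 h in KO-1 and 2.71 in KO-2. The 2 replicates of IL-1b 0 h differed by 3.68. The rank correlation of a library's deviation with transcript length, over 9561 genes, was -0.022 and 0.053 at 8 h of IL-1b and 0.153 and -0.142 at 0 h, so that KO-1 and KO-2 had opposite signs at 0 h; its part in the results was not tested.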
